A study of Mus musculus with 10 samples.

Results

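The fatty acid elongases and desaturases of the mouse liver were examined after loss of the histone variant H3.3. The 10 genes were chosen by name, as those whose symbol in the table of counts is Elovl1, Elovl2, Elovl3, Elovl5, Elovl6, Elovl7, Fads1, Fads2, Fads3 or Fads6, out of 55421 gene identifiers. The rule uses names only, although the set was picked with earlier results of these data known. Poly(A) RNA-seq was performed on whole livers of 10 male mice. The H3.3 KO group (KO, n = 4) held H3f3afl/fl_H3f3bfl/fl mice on a C57BL/6 background that received AAV8 Tbg-Cre, so that Cre removes both genes that encode H3.3. A first control group held wildtype mice given the same AAV8 Tbg-Cre (WT Cre controls, n = 3), and a second held H3f3afl/fl_H3f3bfl/fl mice given AAV8 Tbg-MCS, which carries no Cre (MCS controls, n = 3). Virus was given at 6 months of age and livers were taken 3 weeks later in all groups. Tbg is a hepatocyte promoter, so the other cells of the liver kept H3.3 and contributed to every library. The genotype field names HIRA for the floxed mice, whereas titles and design text give H3f3a and H3f3b, and the titles were followed. Both target genes were lower in KO, with a log2 fold change of -1.83 for H3f3a and -1.66 for H3f3b (edgeR's adjusted p = 3.502e-08 and 3.623e-06). Nothing in the labels gives litters, cages or preparation dates, so p-values measure the spread between these livers only and no batch could be examined.

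Elongases of the Elovl family catalyse the first and rate-limiting condensation step by which the endoplasmic reticulum lengthens fatty acids as their CoA esters. Elovl1, Elovl3, Elovl6 and Elovl7 act mainly on saturated and monounsaturated chains, whereas Elovl2 and Elovl5 act on polyunsaturated fatty acids (PUFA). The front-end desaturases Fads1 and Fads2 insert double bonds into PUFA between the elongation steps, so that linoleic and alpha-linolenic acid from the diet become arachidonic acid and docosahexaenoic acid (DHA). Fads3 acts on sphingoid bases, and Fads6 is a related gene whose substrate is less clear. In liver many of these genes respond to SREBP-1c, LXR and PPARalpha, and Elovl3 is known for its male-biased and circadian expression in mouse liver.

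Promoter sequences are shown for 3 of the genes. RefSeq entries (GRCm38.p6, the assembly known as mm10), each reaching from 250 bases before to 50 after a start, were matched for 8 of the 10 genes. Elovl3 and Fads1 had no entry. The 3 shown belong to the PUFA elongase that fell, to the desaturase that rose and to the elongase whose call turned on single livers. Capitals mark matches on either strand to CCAAT (NF-Y box), GGGCGG (GC box), CACGTG (E-box), AGGTCA (nuclear receptor half-site) or TCACNCCAC (core of a sterol element), and none of these motifs overlapped another in the 3 sequences.
Elovl5, chr9:77917115-77917414, plus strand: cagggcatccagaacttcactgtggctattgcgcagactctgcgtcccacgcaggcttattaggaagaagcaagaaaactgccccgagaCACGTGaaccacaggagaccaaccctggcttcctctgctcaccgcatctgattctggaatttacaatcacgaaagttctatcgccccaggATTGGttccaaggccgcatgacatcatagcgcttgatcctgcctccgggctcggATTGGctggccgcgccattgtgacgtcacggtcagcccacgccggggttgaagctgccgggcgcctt
Fads2, chr19:10101454-10101753, minus strand: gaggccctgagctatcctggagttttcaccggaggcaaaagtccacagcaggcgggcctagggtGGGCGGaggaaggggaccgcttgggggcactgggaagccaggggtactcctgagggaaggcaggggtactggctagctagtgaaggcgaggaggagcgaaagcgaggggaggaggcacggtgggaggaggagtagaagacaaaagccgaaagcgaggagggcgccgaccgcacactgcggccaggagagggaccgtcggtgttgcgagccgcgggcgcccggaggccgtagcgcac
Elovl6, chr3:129532136-129532435, plus strand: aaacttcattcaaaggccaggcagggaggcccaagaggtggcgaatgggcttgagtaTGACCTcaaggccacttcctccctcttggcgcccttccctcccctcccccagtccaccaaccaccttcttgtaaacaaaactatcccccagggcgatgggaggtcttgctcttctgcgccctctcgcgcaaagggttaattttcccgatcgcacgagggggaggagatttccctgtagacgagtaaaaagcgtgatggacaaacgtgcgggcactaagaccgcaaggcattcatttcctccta
The Elovl5 window held 2 CCAAT matches, both on the reverse strand, and 1 CACGTG. The Fads2 window held 1 GGGCGG and the Elovl6 window held 1 AGGTCA. Among all 32851 promoters in the table, 37.4% held CCAAT, 35.7% held GGGCGG, 7.15% held CACGTG, 16.3% held AGGTCA and 1.24% held TCACNCCAC. A match is only a run of letters, and no binding was measured here. All 10 genes are protein coding in the annotation of the mm10 build. Fads3 (chromosome 19 at 10041569 to 10060110, plus strand), Fads2 (10062765 to 10101746, minus strand) and Fads1 (10182888 to 10196877, plus strand) lie beside each other, with 2654 bases between Fads3 and Fads2 and 81141 between Fads2 and Fads1. Elovl3 lies farther along chromosome 19 at 46131897 to 46135694 on the plus strand. Elovl5 spans 77917364 to 77984519 on chromosome 9 (plus), Elovl6 129532355 to 129638495 on chromosome 3 (plus), Elovl2 41182381 to 41220405 on chromosome 13 (minus) and Elovl7 108214404 to 108285683 on the same chromosome (plus). Elovl1 spans 118428093 to 118432953 on chromosome 4 (plus) and Fads6 115279622 to 115297663 on chromosome 11 (minus). The files identify Elovl3 as ENSMUSG00000038754.5, Elovl5 as ENSMUSG00000032349.13, Elovl6 as ENSMUSG00000041220.10 and Fads2 as ENSMUSG00000024665.8.

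In the KO livers Elovl3 fell 13.4-fold (the ratio of mean CPM), Elovl5 fell to 45.5% of the control mean and Fads2 rose to 147%. The other 7 genes did not pass the test in the comparison with all 6 controls. Expression is given in CPM, a count divided by the size of its library after TMM adjustment, and a gene was called when the edgeR quasi-likelihood test gave an adjusted p under 0.05 over 22449 genes. Thus 1 of 10 was called higher, where 19.7% of all genes tested were, and 2 of 10 were called lower, where 16.6% were. Under the rule of the study, which also asks for an absolute log2 fold change over 1, none of the 10 was higher (12.9% of all genes) and the same Elovl3 and Elovl5 were lower (5.79%). With 10 genes these shares lie close to the background, and nothing is read from them about the family as a whole. KO livers had a higher CPM than every control for Fads2 alone (12.5% of all genes did so) and a lower CPM than every control for Elovl3 and Elovl5 (12% of all genes).

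**Figure D1:**
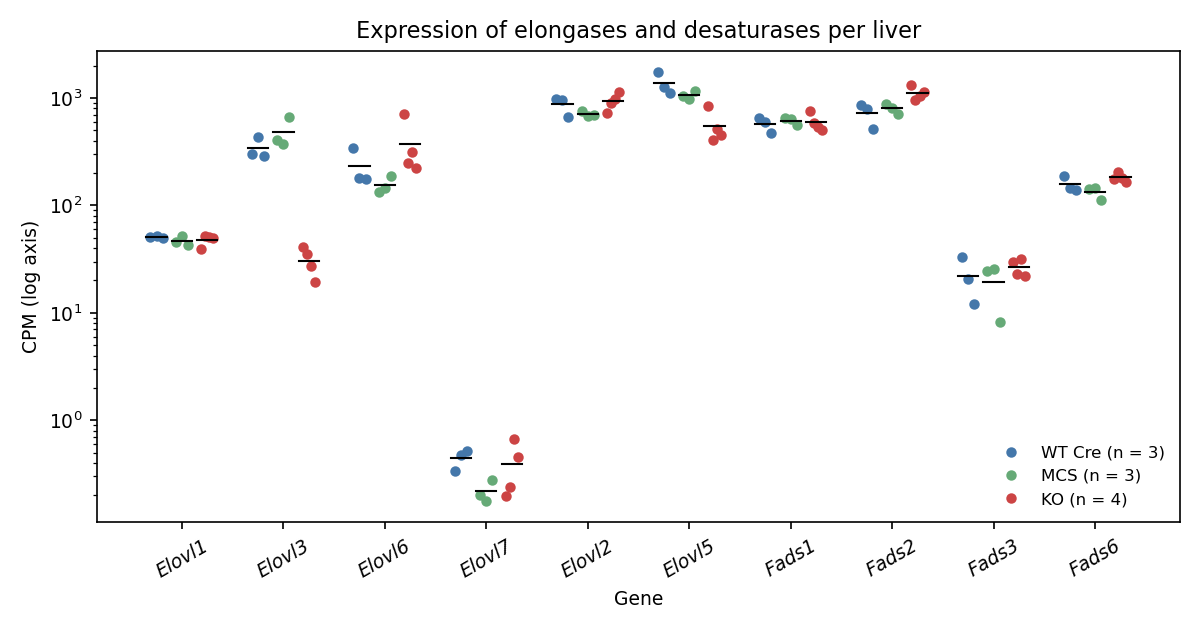
CPM of each gene in each liver on a log axis, with WT Cre controls in blue, MCS controls in green and KO in red, and a black line at each group's mean. The 4 KO livers sit between 19.2 and 40.6 CPM for Elovl3 against 290 to 663 CPM in the controls, and Elovl7 lies below 1 CPM in all livers.

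Among the elongases of saturated and monounsaturated chains, Elovl3 showed the largest difference of the 10 genes. The enzyme makes saturated and monounsaturated very long chains and was studied first in skin and brown fat. Its expression in KO 1 to 4 was 40.6, 35.6, 27.1 and 19.2 CPM. In the 6 controls it was 290 CPM at the lowest, 388 at the median and 663 at the highest. The groups did not overlap, and the lowest control stood far above the highest KO liver. Controls averaged 411 ± 135 CPM (SD, n = 6) and KO livers 30.6 ± 9.42 CPM (SD, n = 4), giving a log2 fold change of -3.75 (SE 0.299, edgeR's adjusted p = 6.543e-06) that ranked 141 by p among all genes tested. A two-sided exact permutation test gave p = 0.00476, the smallest that the 210 ways of taking 4 of 10 livers can give. Set against WT Cre controls alone the log2 fold change was -3.48, and against MCS controls -3.97 (edgeR's adjusted p = 3.123e-05 and 1.141e-05). Each of 18 alternative settings kept the call, with log2 fold changes from -3.91 to -3.49.

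Exons of Elovl3 overlap those of Pitx3, a homeobox gene on the other strand. Pitx3 had 1 to 5 counts in KO livers and 52 to 107 in the controls, and its log2 fold change was -4.90 (edgeR's adjusted p = 1.013e-05). Its counts came to 0.161% to 0.556% of those of Elovl3 in KO livers and to 0.546% to 0.904% in the controls. The kit was directional but the strand setting of the counting was not stated, so that reads of Pitx3 and of Elovl3 may not have been told apart. In every liver, then, Pitx3 had less than 1% of the counts of Elovl3.

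Elovl6, which lengthens palmitate to stearate after de novo lipogenesis, was higher in KO livers on average but did not pass the test against all controls. It stood at 706, 247, 311 and 223 CPM in KO 1 to 4. In the controls the lowest value was 134 CPM, the median 179 and the highest 342. All 4 KO livers lay above the control median, and only KO 1 lay above WT Cre 1, the highest control. The log2 fold change was 0.94 (SE 0.361, 95% interval from 0.13 to 1.74, edgeR's adjusted p = 0.06737), and the exact permutation test gave p = 0.0476 with no adjustment for the 10 genes so tested. Its call turned on single livers. Without WT Cre 1 the log2 fold change was 1.17 (edgeR's adjusted p = 0.01695), and without KO 1 it was 0.42 (edgeR's adjusted p = 0.2557). With WT Cre controls alone it was 0.67 (edgeR's adjusted p = 0.2775) and with MCS controls alone 1.26 (edgeR's adjusted p = 0.05397). Elovl6 passed in 9 of 18 alternatives against MCS controls and in 0 of 18 against WT Cre controls. Further settings under which Elovl6 and Fads6 passed are given with the limits at the end. The antisense transcript Gm35986 overlaps exons of Elovl6 and had 153 to 459 counts in KO livers and 161 to 271 in controls, at most 6.06% of the counts of Elovl6 in any liver.

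Elovl1, a broadly expressed elongase that supplies very long chains for ceramides, was nearly flat. It stood at 39.4, 52.3, 50.8 and 49.5 CPM in KO 1 to 4 and at 42.4 CPM (lowest), 50.2 (median) and 52.4 (highest) in the controls, so the groups overlapped almost completely. The log2 fold change was -0.02 (95% interval from -0.24 to 0.20, edgeR's adjusted p = 0.8914), an interval that leaves out a change of 1 in either direction, and its sign turned under several settings. Exons of Elovl1 overlap those of the cell cycle gene Cdc20 on the other strand, which rose (log2 fold change of 1.44, edgeR's adjusted p = 0.01197) and had 6.12% to 9.2% of the counts of Elovl1 in KO livers and 1.17% to 4.76% in controls. Elovl7 was barely measured, with 3 to 16 counts per liver, and its log2 fold change of 0.26 had a 95% interval from -0.63 to 1.16 (edgeR's adjusted p = 0.6649). No difference in Elovl7 was detectable at this depth. Elovl4, which is not among the 10 genes, had at most 3 counts in any liver.

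The PUFA elongases diverged. Elovl5 acts early in PUFA elongation and had the highest mean level per length of the 10 genes in the controls. Its expression was 842, 408, 513 and 452 CPM in KO 1 to 4, against 981 CPM at the lowest, 1144 at the median and 1737 at the highest in the controls. Every KO liver lay below every control, with KO 1 nearest to them. Controls averaged 1217 ± 274 CPM (SD, n = 6) and KO livers 554 ± 197 CPM (SD, n = 4), giving a log2 fold change of -1.14 (SE 0.219, edgeR's adjusted p = 0.001457, exact permutation p = 0.00476). It was -1.31 with WT Cre controls alone and -0.94 with MCS controls alone (edgeR's adjusted p = 0.001905 and 0.009775). All 18 alternatives kept the call against all controls, with log2 fold changes from -1.41 (without KO 1) to -0.98 (library size only).

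Elovl2, which carries PUFA on to the chains from which DHA is made, did not pass the test. It stood at 718, 904, 980 and 1143 CPM in KO 1 to 4 and at 671 CPM (lowest), 725 (median) and 988 (highest) in the controls. Only KO 4 lay above all controls. The log2 fold change was 0.25 (SE 0.158, 95% interval from -0.09 to 0.59, edgeR's adjusted p = 0.2469, exact permutation p = 0.181). The ratio of Elovl2 to Elovl5 per length separated the groups, being 0.758, 1.97, 1.70 and 2.24 in KO 1 to 4 and between 0.505 and 0.667 in all 6 controls. Elovl5 was thus ahead of Elovl2 in every control and in KO 1, and behind it in KO 2, KO 3 and KO 4. The difference in the log2 ratio was 1.42 (two-sided exact permutation p = 0.00476, also after adjustment over the 3 ratios examined, which were picked with the values in view).

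**Figure D2:**
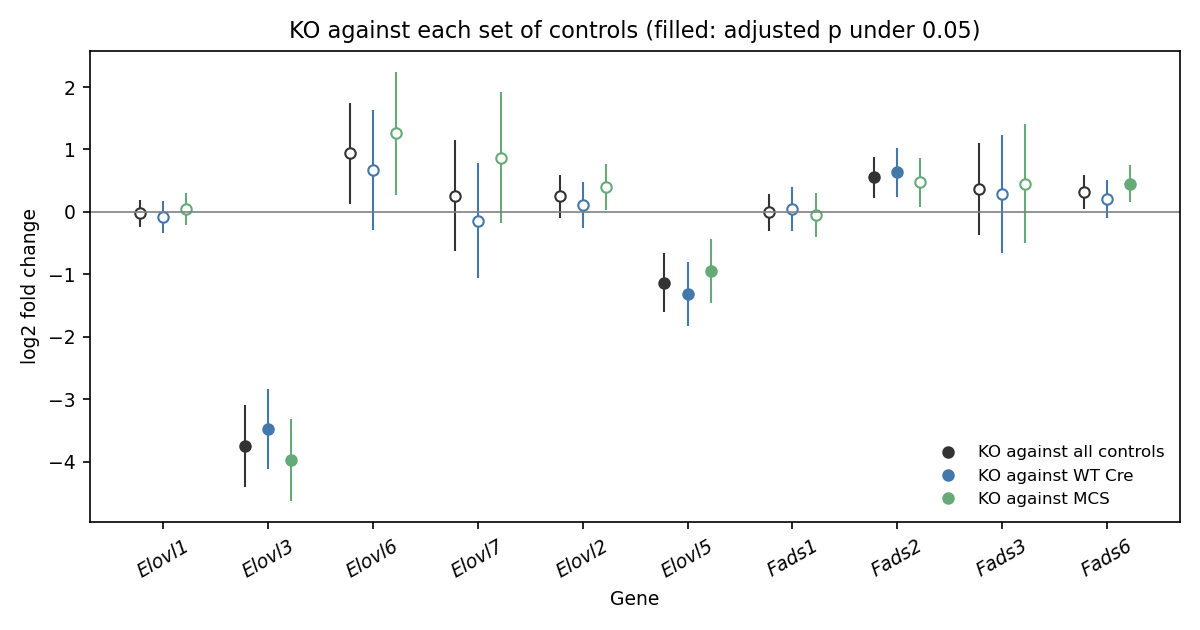
Log2 fold change of each gene in KO against all controls (black), WT Cre controls (blue) and MCS controls (green), with 95% intervals and filled points for an edgeR adjusted p under 0.05. Elovl3 (-3.75 against all controls) and Elovl5 (-1.14) lie below 0 in all 3 comparisons, which share the KO livers.

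Among the desaturases Fads2 rose. Fads2 introduces the first double bond of the PUFA pathway and can also act on palmitate. It stood at 1324, 948, 1042 and 1133 CPM in KO 1 to 4, and the controls had 509 CPM at the lowest, 800 at the median and 874 at the highest. The groups did not overlap, although KO 2 came near the highest control. Controls averaged 757 ± 136 CPM (SD, n = 6) and KO livers 1112 ± 161 CPM (SD, n = 4), giving a log2 fold change of 0.55 (SE 0.154, edgeR's adjusted p = 0.01311, exact permutation p = 0.00476). All 18 alternatives kept this call, with log2 fold changes from 0.46 to 0.74. With WT Cre controls alone the log2 fold change was 0.63 (edgeR's adjusted p = 0.02107), and without WT Cre 3, the liver with the lowest Fads2, it was 0.44 (edgeR's adjusted p = 0.09363). With MCS controls alone it was 0.48 and did not pass (edgeR's adjusted p = 0.06107), though it passed in 7 of 18 alternatives, among them DESeq2 (adjusted p of 0.03218) and library size only (0.006728).

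Fads1, the neighbour of Fads2 that acts later in the same pathway, was level. It stood at 759, 580, 536 and 498 CPM in KO 1 to 4 and at 476 CPM (lowest), 621 (median) and 651 (highest) in the controls. The values overlapped, with KO 1 above all controls and the other KO livers below the control median. The log2 fold change was -0.01 (95% interval from -0.30 to 0.29, edgeR's adjusted p = 0.9838), and its sign turned under most settings. The ratio of Fads2 to Fads1 per length was 2.55, 2.39, 2.84 and 3.32 in KO 1 to 4 and ran from 1.56 to 1.97 in the controls, so that the pair shifted towards Fads2 in each KO liver. The difference in the log2 ratio was 0.58 (two-sided exact permutation p = 0.00476, adjusted over 3 ratios 0.00476).

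Fads6 stood at 176, 206, 180 and 165 CPM in KO 1 to 4, with 113 CPM at the lowest, 143 at the median and 188 at the highest in the controls. All KO livers lay above the control median but only KO 2 above WT Cre 1. Its log2 fold change was 0.32 (95% interval from 0.05 to 0.60, edgeR's adjusted p = 0.06163, exact permutation p = 0.0381 without adjustment). Against all controls it passed without WT Cre 1 (0.41, edgeR's adjusted p = 0.01387). Fads3 had 22.1 to 31.5 CPM in KO livers and 8.27 to 32.7 CPM in controls, a wide spread in which the groups overlapped (log2 fold change of 0.37, 95% interval from -0.37 to 1.11, edgeR's adjusted p = 0.432).

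The KO livers were then set against each kind of control. With WT Cre controls alone 1 of the 10 was called higher (Fads2, where 15.3% of all genes were called higher) and 2 lower (Elovl3 and Elovl5, where 13.1% were). Against MCS controls 1 was called higher (Fads6, log2 fold change of 0.45, edgeR's adjusted p = 0.0257, where 17.3% were) and Elovl3 and Elovl5 were again lower (14.8%). The call of Fads6 was lost without KO 2 (0.41, edgeR's adjusted p = 0.0595), without MCS 1 (0.50, 0.05162) and without MCS 3 (0.35, 0.09586). Both comparisons share the KO livers and are not independent. WT Cre and MCS controls were compared directly, which is also the test of whether the KO difference depends on the kind of control. None of the 10 passed by edgeR, where 0.441% of all genes were called higher and 0.486% lower, and none was under an unadjusted p of 0.05. None passed under any of the 18 alternatives either, DESeq2 among them. The nearest was Elovl7 (log2 fold change of 1.01, unadjusted p of 0.06575 and adjusted p of 0.5093 by edgeR).

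Levels of different genes were set side by side as CPM per kilobase of merged exons. In the controls the order ran Elovl5 (346 ± 77.7), Fads2 (230 ± 41.2), Elovl3 (208 ± 68.6), Elovl2 (199 ± 35.8), Fads1 (124 ± 14.3), Elovl6 (30.2 ± 11.7), Fads6 (21.8 ± 3.62), Elovl1 (17.9 ± 1.48), Fads3 (5.44 ± 2.38) and Elovl7 (0.0826 ± 0.0348; SD, n = 6). Elovl5 was first in 5 of 6 controls, and in MCS 3 it stood at 333 beside 336 for Elovl3. Fads2, Elovl3 and Elovl2 had overlapping ranges and cannot be ranked among themselves, and the ranges of Elovl6 and Fads6 overlapped, as did those of Fads6 and Elovl1. By this measure Fads6 nevertheless stood above Elovl1 in each of the 6 controls, and the ranges of Elovl6 and Elovl1 did not overlap. On the deposited FPKM that order turned, with ranks in the controls of 6 for Elovl1, 7 for Elovl6 and 8 for Fads6. Elovl6, Fads6 and Elovl1 thus cannot be ranked among themselves. In KO livers Fads2 (337 ± 48.7) came first in all 4, followed by Elovl2 (236 ± 44.5), Elovl5 (157 ± 55.8), Fads1 (123 ± 24.0) and Elovl6 (57.8 ± 35.2; SD, n = 4). Each of these overlapped the next one named in range. Elovl3, at 15.5 ± 4.77 (SD, n = 4), dropped to eighth place, beside Elovl1.

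Summed over the 6 Elovl genes the level per length was 801 ± 122 (SD, n = 6) for controls and 484 ± 60.1 (SD, n = 4) for KO livers. The makeup of that sum shifted. Elovl2 took 24.9% ± 2.69 (SD, n = 6) of it among controls and 49.7% ± 12.2 (SD, n = 4) among KO livers. Elovl3 went from 26.1% ± 7.33 to 3.22% ± 0.974, Elovl5 from 43.0% ± 4.92 to 31.9% ± 7.16, and Elovl6 from 3.71% ± 0.955 to 11.5% ± 5.44. These shares are not independent, since a loss of Elovl3 and Elovl5 raises the share of the others. The Fads sum was 381 ± 59.0 (SD, n = 6) for controls and 495 ± 67.4 (SD, n = 4) for KO livers, of which Fads2 took 60.1% ± 2.29 and 68.1% ± 2.99 and Fads1 32.7% ± 1.60 and 24.8% ± 2.49. The ratio of Elovl6 to Elovl3, the palmitate elongase against the very long chain elongase, was 5.34, 2.13, 3.52 and 3.55 in KO 1 to 4 and 0.0862 to 0.346 in the controls (difference in log2 ratio of 4.59, two-sided exact permutation p = 0.00476, adjusted over 3 ratios 0.00476). Most of that difference came from Elovl3, as the separate values show, and the p-value of this ratio adds nothing to that of Elovl3 alone.

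**Figure D3:**
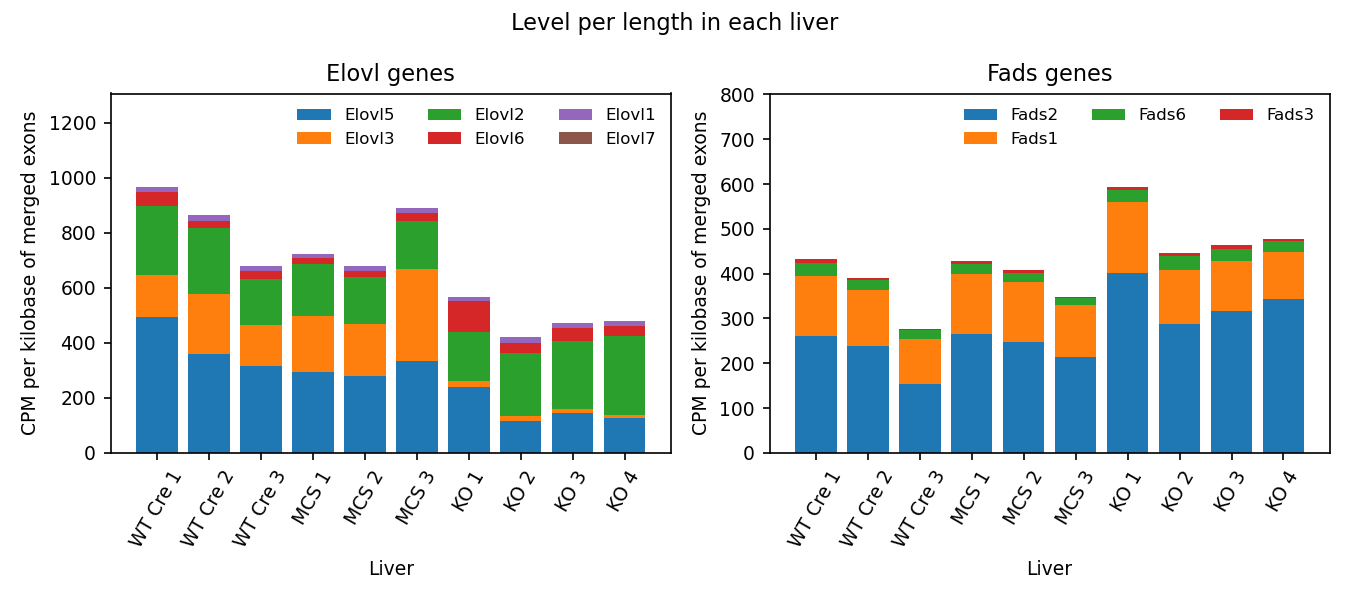
Stacked level per length (CPM per kilobase of merged exons) of the Elovl genes (left) and Fads genes (right) in each of the 10 livers. The Elovl columns of the KO livers are shorter (419 to 565 against 679 to 968 in controls), with the Elovl3 segment nearly gone, and the Fads columns are 445 to 594 in KO livers and 278 to 432 in controls.

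**Figure D4:**
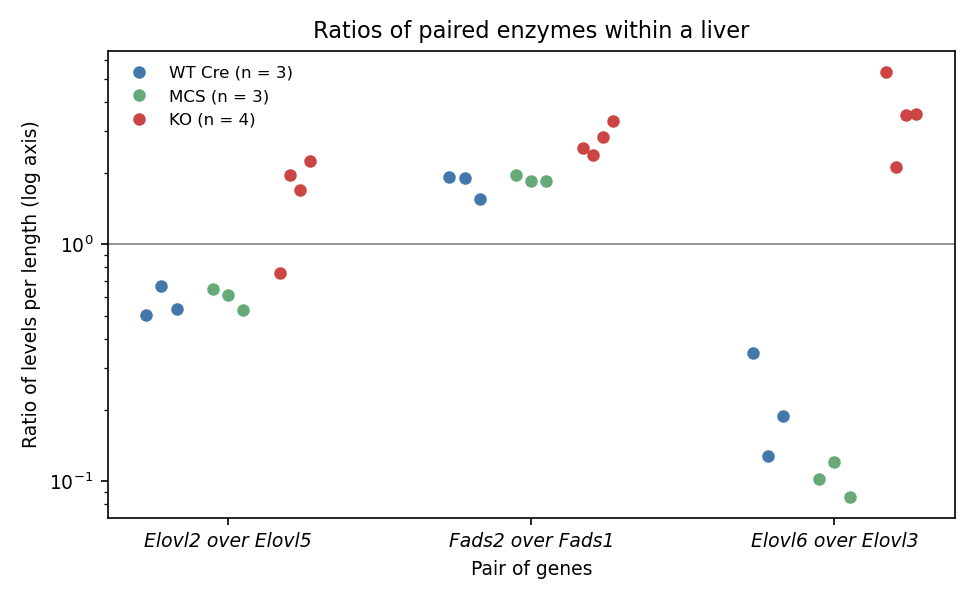
Ratios of the levels per length of 3 pairs of genes within each liver on a log axis, with a line at equal levels, and WT Cre controls, MCS controls and KO in blue, green and red. For each pair the 4 KO livers lie above the 6 controls, and for Elovl2 over Elovl5 only KO 1 (0.758) stays below equal levels among the KO livers.

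KO 1 and WT Cre 1 stood out in their groups. KO 1 had the highest Elovl3, Elovl5, Elovl6, Fads1 and Fads2 of the KO livers and the lowest Elovl2. Its library was the smallest, with 14998426 counts, and the others held 20862860 to 26096141. The summed CPM of 12 genes of de novo lipogenesis and stearoyl-CoA desaturation was also highest in KO 1 (24217 against 11788 to 15013 in KO 2 to 4) and in WT Cre 1 (32122 against 18076 to 23955 in the other controls), with Scd1 making up 68.5% to 85.9% of that sum. Within the 6 controls Elovl6 followed this sum (Pearson r = 0.975, exact permutation p = 0.00278; Spearman rho = 0.943, exact permutation p = 0.0167), and so did Elovl5 (r = 0.976, exact permutation p = 0.00556; rho = 0.943, exact permutation p = 0.0167). Adjusted over both relations the p-values of r were 0.00556 for each and those of rho 0.0167. Without WT Cre 1 and MCS 1, the controls farthest from the median of the sum, r was 0.947 for Elovl6 and 0.969 for Elovl5 over 4 livers. Thus Elovl5 and Elovl6 ran together with this sum, mostly Scd1, among control livers. Between KO and controls Scd1 was called lower (log2 fold change of -0.74, edgeR's adjusted p = 0.01822), and it was named after its values were seen. The sum lay below every control in KO 2 to 4 but not in KO 1. Elovl5 fell as Scd1 did, while Elovl6 did not fall. Other lipogenic genes were not examined one by one. The permutations ran over both kinds of control, and WT Cre controls averaged more than MCS controls in Elovl5 (1372 and 1062 CPM) and Elovl6 (233 and 155 CPM). Both relations were chosen after the values were seen.

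Markers of several cell types differed between the groups. Of 12 hepatocyte markers 8 were called lower and none higher, with a summed CPM of 84550 to 100262 in KO livers, 111848 to 124054 in WT Cre and 136834 to 159164 in MCS controls. All 12 Kupffer cell and macrophage markers were called higher (664 to 1440 against 285 to 542 in the controls), as were 10 of 12 stellate cell and fibroblast markers (549 to 896 against 246 to 326), 9 of 12 lymphoid markers (23.1 to 134 against 12.5 to 16.8), 5 of 7 neutrophil markers and 9 of 10 proliferating cell markers, where 19.7% of all genes were called higher and 16.6% lower. The 2 of 12 endothelial and 1 of 10 cholangiocyte markers called higher lay below that share. KO 1 was nearest to the controls in lymphoid (23.1 against 107 to 134 in KO 2 to 4) and neutrophil sums (6.39 against 17.8 to 29.6). So it was in Kupffer cell and macrophage (664 against 1044 to 1440) and hepatocyte sums (100262 against 84550 to 96505). Its cholangiocyte sum did not stand apart (93.9 against 79.2 to 94.4). Of 3 adipocyte markers tested none was called, and Adipoq, Plin1 and Lep had at most 3 counts in every control, as had the neutrophil marker Ly6g. The hepatocyte markers did not move alike, with log2 fold changes from -1.88 to 0.24. In such bulk samples fewer hepatocytes, less RNA per hepatocyte and lower expression of the marker genes themselves cannot be told apart. The part of these shifts in the differences of Elovl3, Elovl5, Fads2 and Elovl6 was not tested. The ratios between genes of one liver do not depend on its scaling.

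Genes that work next to the elongases and desaturases were taken from lists drawn up with earlier results of these data known, each read against 19.7% higher and 16.6% lower over all genes and a median log2 fold change of -0.003. Of 14 partners in elongation and desaturation, which activate the acid, finish the elongation cycle or pass electrons to the desaturases, 3 were called higher and 2 lower, with a median of -0.03. Acsl4, an acyl-CoA synthetase that prefers arachidonic acid, rose (log2 fold change of 1.71, edgeR's adjusted p = 0.009535), with 46.8 ± 10.1 CPM in controls (SD, n = 6) and 153 ± 94.8 in KO livers (SD, n = 4). Among the dehydratases of the elongation cycle Hacd4 (log2 fold change of 1.34) and Hacd3 (0.28) rose, whereas Hacd1 (-1.21) fell. Hacd4 and Hacd1 were low, at mean levels of 1.36 and 6.28 CPM in controls and 3.43 and 2.69 CPM in KO livers. Tecr, the reductase of the last step, passed narrowly (-0.38, edgeR's adjusted p = 0.04051), as did Hacd3 (0.04462), and the number of partners called lower was 1 with RLE size factors, library size only or filterByExpr. Hsd17b12, the reductase of the second step, stood at 236 ± 15.1 CPM in controls (SD, n = 6) and at 247 ± 14.9 in KO livers (SD, n = 4), and was not called (log2 fold change of 0.06, edgeR's adjusted p = 0.6338). Hacd3, Tecr and Hsd17b12 were named after their values were seen.

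Among 16 genes that bind, transport or esterify PUFA and very long chain acids, 5 were called higher and 5 lower, with a median of -0.02. Mfsd2a, which transports DHA as lysophosphatidylcholine, fell, as did Fabp1, the main fatty acid binding protein of hepatocytes, and its relative Fabp5, with log2 fold changes of -4.22, -2.44 and -1.99 (edgeR's adjusted p = 0.003863, 0.0003996 and 0.02786). Mfsd2a averaged 166 ± 47.0 CPM in controls (SD, n = 6) and 9.12 ± 11.8 in KO livers (SD, n = 4). The groups overlapped for Fabp5, at 4.37 to 53.1 CPM in controls and 4.82 to 8.80 CPM in KO livers. The 5 that rose were the ceramide synthases Cers5 (1.25) and Cers6 (1.67) and the acyltransferases Mboat1 (1.12), Lpcat3 (0.52) and Agpat5 (0.43), each a log2 fold change and named after their values were seen. The list thus held changes in both directions that its median hides.

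Of 22 regulators of lipogenic and PUFA genes, 7 were called lower and 1 higher, with a median of -0.11. Fgf21, a fasting hormone of the liver, fell, as did Pparg, a lipogenic nuclear receptor, and Scap, which escorts SREBP proteins to their activation, with log2 fold changes of -3.49, -2.21 and -1.03 (edgeR's adjusted p = 0.0041, 0.0154 and 0.0008843). Srebf1, which encodes SREBP-1c, had a log2 fold change of -0.46 (SE 0.418, edgeR's adjusted p = 0.4384) and Mlxipl, which encodes ChREBP, one of -0.08 (SE 0.169, edgeR's adjusted p = 0.7656), so neither passed. Both were named outside the rule. In de novo lipogenesis and stearoyl-CoA desaturation 2 of 12 genes were called higher and 3 lower (median of -0.14). Scd2, a desaturase that is low in adult liver, averaged 12.4 ± 3.99 CPM in controls (SD, n = 6) and 1183 ± 245 in KO livers (SD, n = 4). Scd2 rose, while Me1, which supplies NADPH, and Acacb, the acetyl-CoA carboxylase at mitochondria, fell, with log2 fold changes of 6.57, -1.37 and -1.17 (edgeR's adjusted p = 1.971e-08, 0.03106 and 0.006873). Peroxisomal beta-oxidation, which trims very long chains and completes DHA, had 1 of 14 genes called higher and 5 lower (median of -0.43). There the thiolase Acaa1a, the import receptor Pex7 and the oxidase Acox3 fell, with log2 fold changes of -1.16, -0.89 and -0.82 (edgeR's adjusted p = 3.353e-05, 0.001208 and 6.037e-05).

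**Figure D5:**
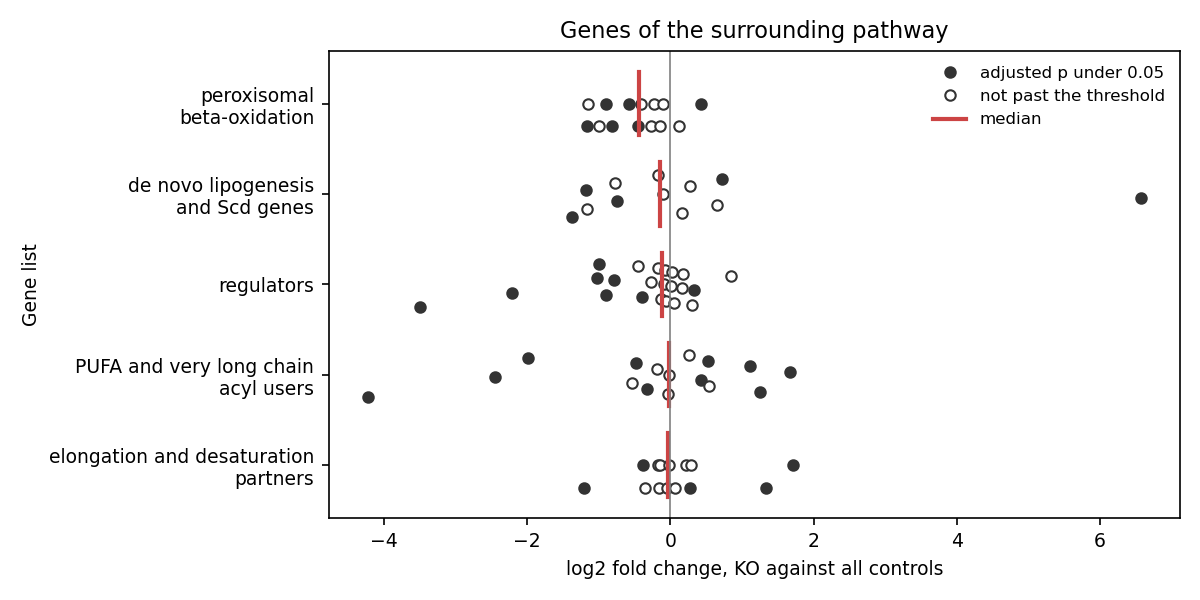
Log2 fold change in KO against all controls for each gene of 5 lists around the elongases and desaturases, with filled points for an edgeR adjusted p under 0.05, open points for the rest and a red line at each list's median. The medians lie between -0.43 and -0.02, and single genes reach from -4.22 (Mfsd2a) to 6.57 (Scd2).

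Elovl3 depends on sex, clock and feeding in the mouse, and lists for these were counted beside it, again against 19.7% of all genes called higher and 16.6% lower. Of 13 female-biased liver genes 11 were called higher and none lower (median of 3.81), led by Cyp3a41a (8.61), Cyp2b13 (7.12) and A1bg (6.25), all log2 fold changes of genes with few counts in the controls. Of 13 male-biased genes 4 were called higher and 2 lower (median of -0.44), and the largest called were Cyp2u1 (1.87), Cyp4a12a (1.61) and C6 (1.30), all higher. The 2 called lower were Ugt2b38 (-1.19) and Nudt7 (-0.74), and the largest difference of the list, that of Hsd3b5 (-4.39), did not pass. These 3 were named after their values were seen. Over the 18 alternatives the number of male-biased genes called lower ran from 0 to 3. Of 16 circadian clock genes 2 were called higher and 1 lower (median of 0.26), both below the share over all genes, with Ciart at 2.24, Nfil3 at -2.02 and Cry2 at 0.72 on the log2 scale. Of 14 fasting and feeding genes 8 were called lower and none higher (median of -0.82), led by G6pc (-1.71), Pklr (-1.51) and Ppp1r3b (-1.42). Mice of the study had free access to food, and the hour at which livers were taken was not given in the sources used here. The part of clock or feeding in the fall of Elovl3 was not tested.

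For the 3 genes with the highest mean CPM (Elovl5, Fads2 and Elovl2), the genes with the most similar profile were found among 13201 genes, by the mean absolute difference in log2 CPM over the 10 livers after centring on the control mean. Nearest to Elovl5 were Acat2 (0.126), Sardh (0.167) and Rdh16 (0.167). Nearest to Fads2 were Fbln2 (0.111), Tlcd2 (0.117) and Clec11a (0.135), and nearest to Elovl2 were Zbtb46 (0.0858), Ddah2 (0.0948) and Rhbdd1 (0.110). Fbln2, Clec11a, Zbtb46 and Ddah2 were low, with mean CPM over the 10 livers of 3.60, 2.26, 5.68 and 2.89. Fads2 averaged 899 CPM and Elovl2 848 CPM. By the same measure Fads1 stood 0.279 from Fads2, and Elovl2 stood 0.655 from Elovl5.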

How the data were processed

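Whole-liver poly(A) RNA-seq of 10 male mice was analysed (4 KO, 3 WT Cre and 3 MCS controls). Per the methods of the study the authors trimmed reads, aligned them with STAR to mm10 and counted per gene with HOMER, whereas the submitters' processing notes name STAR, HTSeq and Cufflinks. The deposited counts are whole numbers without normalization, and the deposited FPKM values are scaled by length and depth by the authors, with 268042 blank cells (none in the 10 genes) read as 0. Neither the strand setting nor the treatment of multi-mapping reads is given in the sources used here. KO columns were matched to titles by number. Control columns 1 to 6 were matched to the library numbers, on which values for one kind of control rest, while the pooled comparison does not. Totals ran from 14998426 to 26096141 counts and TMM factors from 0.858 to 1.11. Replicate libraries differed beyond sampling noise in all 12 pairs (chi-square per degree of freedom of 11.5 to 109).

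Genes with at least 10 counts in all (22449) were tested with edgeR 4.0.16 under R 4.3.3 (glmQLFit and glmQLFTest, a quasi-likelihood test, two-sided, TMM, robust, no covariates), with Benjamini-Hochberg adjustment over all of them. KO was compared with the 6 controls in a fit of 2 groups, and with each kind of control in a fit of 3 groups. CPM is per TMM-adjusted library, per kilobase of merged exons (GENCODE M21) where genes are compared. Log2 CPM used a prior count of 2. The SE is that of the fitted log2 fold change. Single values were compared by exact permutation over 210 ways. DESeq2 1.42.0, limma 3.58.1 on FPKM, other scalings, filters, a replicate block and each replicate left out were alternatives. The code was tested on simulated data. Named beyond the 10 genes were the 3 called genes with the largest absolute log2 fold change of each pathway list, the 3 nearest by profile to the 3 most abundant genes, and H3f3a and H3f3b; other genes are marked as named later or overlap one of the 10. The 10 genes and all lists were chosen with earlier results of these data known.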

Additional observations from a re-analysis of the deposited data

Results flagged for a closer look

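In 3 of 26 groups of 4 or more livers examined, 1 liver stood apart from the rest by Dixon's criterion, which chance meets in about 1 in 20 groups. Elovl5 in WT Cre 1 was 1737 CPM, the highest of the 6 controls, with a gap to the next of 0.627 of the whole range. Elovl6 in WT Cre 1 was 342 CPM, again the highest control, with a gap of 0.749 of the range. The log2 ratio of Fads2 to Fads1 in WT Cre 3 was 0.64, the lowest of the controls, with a gap of 0.728 of the range. Without WT Cre 1 the log2 fold change of Elovl5 in KO against the remaining controls was -1.01 (edgeR's adjusted p = 0.002745).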

How the results depend on the processing

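Elovl3 and Elovl5 were called lower against all controls and against each kind of control under all 18 alternatives, and Fads2 was called higher against all controls under all 18. The number of the 10 genes called higher against all controls was 1. It was 3 with DESeq2, 3 with library size only, 3 with filterByExpr, and 2 with RLE size factors, with the replicate block, and on log2(FPKM + 1) and log2(FPKM + 0.1), and ran from 1 to 3 when each liver was left out. Elovl6 passed with DESeq2 (adjusted p of 0.01857), library size only (0.03958), filterByExpr (0.04229) and the replicate block (0.03623). Fads6 passed with DESeq2 (0.03137), RLE (0.04446), library size only (0.01597), filterByExpr (0.03983) and on log2(FPKM + 1) (0.03156) and log2(FPKM + 0.1) (0.03214). Against MCS controls the number called higher was 1, and it was 3 with DESeq2, 4 with library size only, 2 with filterByExpr, 2 with no filter, 3 with the replicate block and 4 on either FPKM scale, and ran from 0 to 2 with a liver left out (0 without MCS 1 or MCS 3). Against WT Cre controls it ran from 0 to 1. Of the 18 alternatives against MCS controls, Fads6 passed in 15, Elovl6 in 9, Fads2 in 7 and Elovl2 in 4.

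Over all genes, the 3726 called lower against all controls became 2172 with library size only and 2053 and 2118 on log2(FPKM + 1) and log2(FPKM + 0.1). The 3312 lower against MCS controls became 1697, 1502 and 1530 in the same order. The 2939 lower against WT Cre controls ran from 1949 to 3857 with a liver left out. Between WT Cre and MCS controls, 99 were higher, and 314 with DESeq2, 192 with library size only, 165 with no filter, 208 with the replicate block and 38 to 250 with a liver left out. The 109 lower became 337 with DESeq2, 178 with the block, 48 and 44 on the FPKM scales and 29 to 267 with a liver left out. The cause was not tested.

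Directions turned only for differences that were not called. Elovl1 against all controls (-0.02) became 0.00175 with DESeq2, 0.000408 with RLE, 0.16 with library size only, 0.00377 with filterByExpr and 0.16 and 0.17 on the FPKM scales (-0.0584 to 0.0613 with a liver left out). Fads1 against all controls (-0.01) became 0.0191 with DESeq2, 0.0192 with RLE, 0.0218 with filterByExpr, 0.17 with library size only, 0.00381 with no filter, 0.0627 with the block and 0.17 on both FPKM scales (-0.15 to 0.0726). Against WT Cre controls, Elovl1 became 0.0336 with library size only and 0.0181 on both FPKM scales (-0.12 to 0.00241), and Elovl7 0.0215 and 0.0851 on the FPKM scales (-0.51 to 0.0549). Against MCS controls Fads1 became 0.18 with library size only, 0.00989 with the block and 0.19 on both FPKM scales (-0.19 to 0.0311), and between the controls it became 0.0339 with library size only and 0.0557 and 0.0561 on the FPKM scales (-0.20 to 0.0302). With a liver left out, Elovl7 against all controls ran from -0.11 to 0.46. Against WT Cre controls Elovl2 ran from -0.0438 to 0.22, Fads3 from -0.0023 to 0.70 and Fads1 from -0.10 to 0.14. Elovl1 against MCS controls ran from -0.0241 to 0.13, and between the controls Fads3 ran from -0.24 to 0.47 and Fads2 from -0.30 to 0.0483. Under library size only the median over all genes went from -0.003 to 0.17, and changes there are relative to that shift. Of the 9 genes nearest by profile, 5 had a mean CPM of at least 10 and remained under that filter. The filter can only remove the genes below it, so it does not test how stable the neighbours are. Counts of called genes in the lists moved by over 1.5 times in 65 cases and not in 259.

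For same-numbered livers the correlation of their deviations ran from -0.122 to 0.203 over 9 pairs and was over 0.1 in 3. Between WT Cre and MCS controls it was 0.119, 0.122 and 0.094 for same numbers, against -0.133 to 0.0179 for different numbers. With KO livers it ran from -0.122 to 0.203 for same numbers and from -0.281 to 0.325 for different ones. Whether a number stands for a shared batch is not given in the labels and was not tested. The replicate block is thus a check of the model. The 3 ratios, and their alternatives, were added after seeing the data. Since their groups do not overlap, leaving out a liver cannot change their call, and the sizes of the log2 differences then ran from 1.24 to 1.76 (Elovl2 to Elovl5), 0.49 to 0.65 (Fads2 to Fads1) and 4.38 to 4.84 (Elovl6 to Elovl3). Elovl7 is limited by depth at 3 to 16 counts per liver. With 3 or 4 livers a group, the spread is set by few animals. KO 1, without which Elovl6 stood at 0.42, has the smallest library, but its 10842 counts of Elovl6 were the most of any liver. Several marker sums of KO 1 also lay nearer to the controls than those of KO 2 to 4, as given above. Intervals of the fits rest on these livers only.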
